A study of Mus musculus with 12 samples.

Results

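The tripartite motif (TRIM) gene family was examined in mouse peritoneal macrophages. Its members were taken as every protein-coding row of the count table whose symbol is Trim followed by a digit, which gave 67 of the 47729 genes listed. Reads were sufficient to test 44 of the 67, and the other 23 had at most 19 counts in any library. SPARC, a secreted glycoprotein of the extracellular matrix, was followed by higher transcript levels of a block of neighbouring TRIM genes on chromosome 7 in macrophages from both kinds of donor mouse, and most of the remaining family did not pass the test.

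TRIM proteins share an N-terminal RING domain, 1 or more B-box zinc fingers and a coiled coil, and most act as ubiquitin ligases through the RING. The C-terminal domain sets the target: the SPRY domain of many immune members binds viral capsids, antibody or signalling proteins, while others carry NHL repeats, PHD and bromodomains or microtubule-binding boxes. In macrophages the family is known for restricting viruses and for adjusting the signalling that runs from RNA, DNA and Toll-like sensors to interferon, and many of its members are themselves interferon-inducible.

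The cells came from C57BL/6 mice, with no transgene or mutation named in any group. TG mice had received thioglycollate (3%), an irritant broth that draws monocytes into the peritoneum, 4 days before collection. IL4c mice had received 2 injections of IL-4 complex, each made of 5 ug IL-4 and 25 ug of an antibody to it that prolongs its action, and their cells were collected 2 days after the last. Adherent cells were then kept for 24 h with SPARC at 20 ug/ml or left untreated, with no control protein named for the untreated wells. This gave 4 groups of 3 libraries: TG with SPARC, TG untreated, IL4c with SPARC and IL4c untreated. The labels do not say whether the libraries of a group came from separate mice, and the p-values can speak only of the spread among libraries, which may be technical.

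The libraries held 31501941 to 42288785 estimated counts. All 9 macrophage markers were present, with a summed level of 30666 to 31458 CPM (counts scaled to library size) in TG with SPARC and 22360 to 35201 CPM in untreated TG, and of 13384 to 19109 CPM in IL4c with SPARC and 21022 to 28149 CPM in untreated IL4c, where the groups did not overlap. The single markers were mixed: with SPARC in IL4c, 5 of the 9 had positive log2 fold changes and 4 negative ones (median 0.083). By the edgeR quasi-likelihood test 1 passed as higher and 2 as lower (33.3%, against 27.8% of all genes). Both TG libraries numbered 1 were unlike the rest: the summed level of 9 B cell markers was 555 CPM with SPARC and 974 CPM untreated, against 47.0 to 206 CPM in the other 10 libraries. In IL4c the B cell sum was 47.0 to 86.5 CPM with SPARC and 89.2 to 206 CPM untreated, again without overlap. Calls that changed when both TG libraries numbered 1 were left out are named below. The summed level of 6 neutrophil markers was 90.9 to 286 CPM in TG with SPARC and 40.2 to 52.1 CPM in untreated TG, and 46.9 to 193 CPM in IL4c with SPARC and 29.4 to 40.5 CPM in untreated IL4c. Nearly all of that sum was Mmp8 and S100a8. S100a8 passed the edgeR quasi-likelihood test as higher with SPARC in both injections, by 2.07 ± 0.29 on the log2 scale in each (adjusted p = 0.00354 in TG and 0.000965 in IL4c), and Mmp8 did not pass in either. The defining markers S100a9, Ly6g and Retnlg were at or below 0.287 CPM and Cxcr2 at or below 0.574 CPM in every library. The part of these shifts in marker levels in the responses to SPARC was not tested. In bulk RNA, fewer cells of a type and less RNA per cell cannot be told apart.

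The family was widely expressed. By FPKM, which scales counts by gene length and library size, 41 members reached 1 FPKM or more in at least 3 libraries. Of the 44 tested members, 19 averaged at least 10 FPKM over all libraries, 20 lay between 1 and 10 FPKM and 5 lay below 1 FPKM. Trim25, a ligase that modifies the RNA sensor RIG-I, was the most abundant with a mean of 75.2 FPKM (range 62.5 to 101 FPKM). Trim30a, which in the mouse restrains Toll-like receptor signalling, followed at 72.9 FPKM with a wider range of 29.2 to 135 FPKM. These ranges overlap, so their order is not fixed. Trim28, the corepressor that silences retroelements with KRAB zinc finger proteins, averaged 47.0 FPKM (38.3 to 61.3 FPKM), and Trim8, a regulator of cytokine signalling, averaged 35.3 FPKM (28.8 to 44.8 FPKM). The 5 most abundant members together, with the adaptor Trim14 at 32.0 FPKM as the fifth, made up 41.3% of the family's summed mean FPKM.

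**Figure D1:**
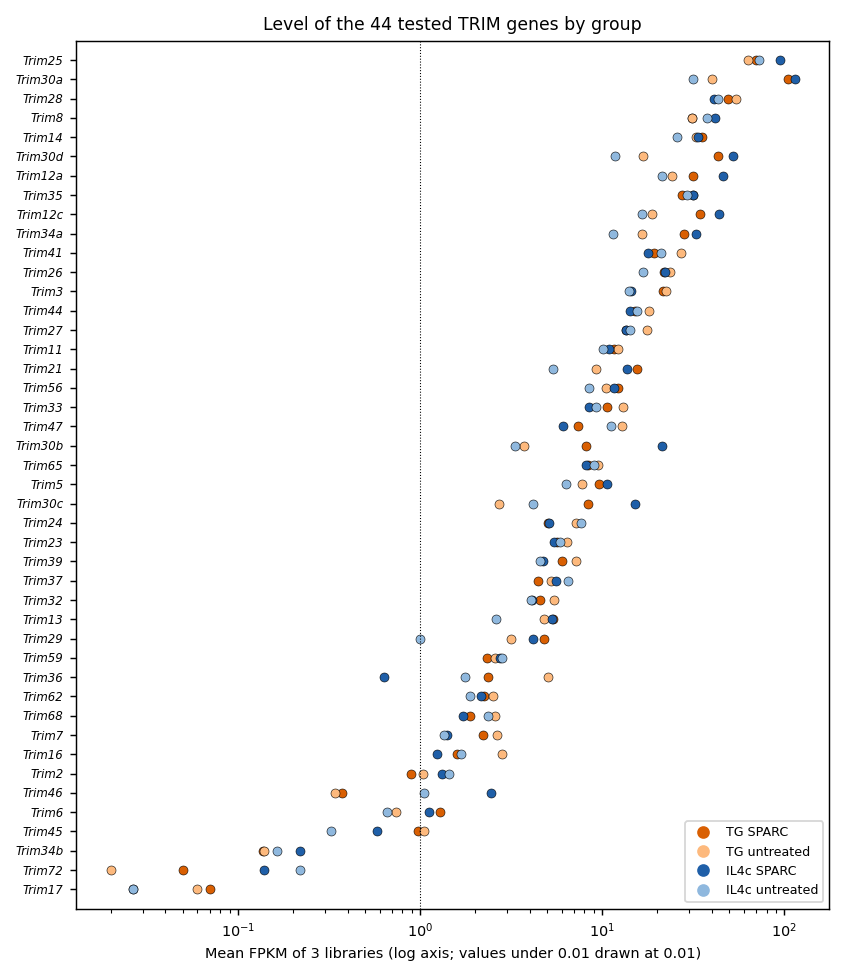
Mean FPKM (log axis) of the 44 tested TRIM genes, drawn as 1 point for each group of 3 libraries and ordered by the mean over all 12 libraries; the dotted line marks 1 FPKM. Trim25 and Trim30a lie at the top with means of 75.2 and 72.9 FPKM, and the 4 points of Trim30a are spread far more widely than those of Trim28.

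Other members were silent or nearly so. Of the 23 untested members, 9 had 0 counts in all 12 libraries, among them the muscle gene Trim54 and the brain gene Trim67. Trim38, a known negative regulator of Toll-like receptor signalling, had no more than 1 count in any library, Trim31 had no more than 1 count and Trim15 no more than 2 counts. A count of 0 allows a level of up to 0.0707 to 0.0974 CPM, depending on the library (3 counts of its total, for counting error only), so expression below this would not have been seen.

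Of the members that rose with SPARC, 5 of 6 in TG and 8 of 14 in IL4c lay in a group of 10 related genes within 289.057 kb of chromosome 7 (chr7:104218793-104507849, GRCm38, GENCODE annotation), which holds no other protein-coding gene. The human counterparts include TRIM5, TRIM6, TRIM22 and TRIM34; primate TRIM5 blocks incoming retroviral capsids. All 10 passed the low-count filter, so they are 10 of the 44 tested members. In TG macrophages with SPARC, 5 of the 10 were higher than in untreated cells (50%, against 6.73% of all genes). In IL4c macrophages 8 of the 10 were higher (80%, against 15.1% of all genes), and none was lower in either. The median log2 fold change of the 10 was 0.86 in TG and 1.44 in IL4c, against −0.033 and −0.0014 over all 15232 genes tested in the same comparisons. The summed level of the cluster was 244.55 to 296.3 FPKM in TG libraries with SPARC and 91.43 to 190.94 FPKM in untreated TG libraries. It was 301.5 to 399.11 FPKM in IL4c libraries with SPARC and 98.45 to 112.19 FPKM in untreated IL4c libraries, and no library with SPARC fell within the untreated range of its injection. As a share of all TRIM FPKM, the cluster made up 36.6% to 41.3% in TG with SPARC and 17.4% to 28.4% in untreated TG, and 40.7% to 48.3% in IL4c with SPARC and 20.4% to 22.7% in untreated IL4c.

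Trim30a (ENSMUSG00000030921.16, chr7:104409025-104465193, minus strand) was at 362, 338 and 307 CPM in TG libraries with SPARC, against 156, 109 and 90.0 CPM in untreated TG libraries. In IL4c libraries it was at 342, 462 and 363 CPM with SPARC, against 106, 109 and 103 CPM untreated. Every library with SPARC was above every untreated library, and the untreated TG library numbered 1 was the highest of the untreated. The fold change was 2.84 in TG (log2 1.51 ± 0.19, SE, n = 3 per group; adjusted p = 0.00182, edgeR quasi-likelihood test with Benjamini-Hochberg adjustment, used throughout) and 3.67 in IL4c (log2 1.88 ± 0.19; adjusted p = 0.0002).

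Its neighbour Trim30d (ENSMUSG00000057596.13, chr7:104470014-104507849, minus strand), a close paralog, was at 121, 121 and 109 CPM with SPARC in TG, against 58.0, 40.4 and 31.8 CPM untreated. In IL4c it was at 133, 173 and 124 CPM with SPARC, against 34.0, 35.9 and 28.8 CPM untreated. Here too the groups did not overlap in either injection. Trim30d rose 2.70-fold in TG (log2 1.43 ± 0.21, adjusted p = 0.00366) and 4.35-fold in IL4c (log2 2.12 ± 0.21, adjusted p = 0.000182). Trim30a and Trim30d were called under each of the 22 alternatives run, in both injections.

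The other paralogs of this group were less abundant and more variable. Trim30b was at 23.9, 12.2 and 11.2 CPM in TG with SPARC, against 15.0, 2.59 and 3.05 CPM untreated, so the groups overlapped through the untreated library numbered 1. In IL4c, Trim30b was at 38.7, 61.9 and 21.1 CPM with SPARC, against 8.86, 6.78 and 2.97 CPM untreated. It rose in IL4c (log2 2.71 ± 0.74, adjusted p = 0.022) and did not pass in TG (log2 1.20 ± 0.71, adjusted p = 0.321). Trim30c was at 15.6, 11.1 and 10.1 CPM in TG with SPARC, against 7.76, 1.41 and 1.89 CPM untreated. In IL4c, Trim30c was at 21.2, 29.9 and 17.4 CPM with SPARC, against 7.20, 6.48 and 5.17 CPM untreated. Its groups did not overlap in either injection. The rise of Trim30c passed in IL4c (log2 1.86 ± 0.55, adjusted p = 0.0294) and not in TG (log2 1.73 ± 0.55, adjusted p = 0.0723). Without both TG libraries numbered 1, Trim30c and Trim30b passed in TG as well, at log2 2.70 ± 0.29 (adjusted p = 0.000906) and 2.08 ± 0.59 (adjusted p = 0.0495).

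Trim12c, Trim12a and Trim5 are the mouse relatives of primate TRIM5. Trim12c (ENSMUSG00000057143.14, chr7:104338754-104353362, minus strand) was at 112, 130 and 112 CPM in TG with SPARC, against 81.9, 65.4 and 47.2 CPM untreated. In IL4c it was at 157, 168 and 153 CPM with SPARC, against 64.1, 62.8 and 59.9 CPM untreated. The groups stood clear of each other in both injections. Trim12c rose 1.82-fold in TG (log2 0.87 ± 0.16, adjusted p = 0.0101) and 2.56-fold in IL4c (log2 1.36 ± 0.16, adjusted p = 0.000402).

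Trim12a was at 52.6, 47.3 and 44.6 CPM in TG with SPARC, against 49.5, 30.7 and 24.6 CPM untreated. In IL4c, Trim12a was at 61.9, 74.3 and 65.4 CPM with SPARC, against 34.1, 37.4 and 29.7 CPM untreated. The TG groups overlapped because of the untreated library numbered 1, and the IL4c groups did not overlap. Trim12a rose 1.99-fold in IL4c (log2 0.99 ± 0.22, adjusted p = 0.00821) and did not pass in TG (log2 0.46 ± 0.22, adjusted p = 0.208), where it passed without both libraries numbered 1 (log2 0.75 ± 0.14, adjusted p = 0.00937). Trim5 was at 31.5, 37.2 and 34.5 CPM in TG with SPARC, against 40.6, 22.8 and 15.1 CPM untreated. In IL4c, Trim5 was at 39.8, 43.8 and 32.0 CPM with SPARC, against 25.1, 22.5 and 21.8 CPM untreated. Trim5 did not pass in TG (log2 0.39 ± 0.29, adjusted p = 0.429) or in IL4c (log2 0.74 ± 0.29, adjusted p = 0.0829), although its IL4c groups did not overlap; without both TG libraries numbered 1 it passed in TG (log2 0.94 ± 0.20, adjusted p = 0.0173) and in IL4c (log2 0.74 ± 0.16, adjusted p = 0.00706). In IL4c Trim5 also passed with only the IL4c groups fitted (adjusted p = 0.00613) and by DESeq2 (adjusted p = 0.0485).

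At the other end of the cluster, Trim34a (ENSMUSG00000056144.13, chr7:104244457-104262234, plus strand) was at 79.5, 66.5 and 62.9 CPM in TG with SPARC, against 55.9, 32.1 and 28.3 CPM untreated. In IL4c it was at 77.7, 102 and 72.8 CPM with SPARC, against 30.9, 31.0 and 25.7 CPM untreated. Trim34a rose 2.88-fold in IL4c (log2 1.52 ± 0.24, adjusted p = 0.0017) and 1.79-fold in TG (log2 0.84 ± 0.24), where its adjusted p of 0.0494 lay at the threshold and was lost under 14 of 22 alternatives. Trim6 (ENSMUSG00000072244.9, chr7:104218793-104235152, plus strand), which makes unanchored ubiquitin chains in interferon signalling, was scarce, with 4.57, 3.19 and 3.94 CPM in TG with SPARC, against 2.00, 2.22 and 2.28 CPM untreated. In IL4c, Trim6 was at 3.11, 3.90 and 3.76 CPM with SPARC, against 1.53, 2.15 and 2.24 CPM untreated. The groups of Trim6 did not overlap in either injection, and it rose by 0.85 ± 0.21 on the log2 scale in TG (adjusted p = 0.0276) and by 0.86 ± 0.21 in IL4c (adjusted p = 0.0122). The TG call of Trim6 was lost under 10 of 21 alternatives, among them the fit without both libraries numbered 1 (log2 0.68 ± 0.24, adjusted p = 0.0909). Trim34b had at most 27.48 estimated counts in a library and did not pass in TG (log2 −0.10 ± 0.66) or IL4c (log2 0.37 ± 0.63).

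**Figure D2:**
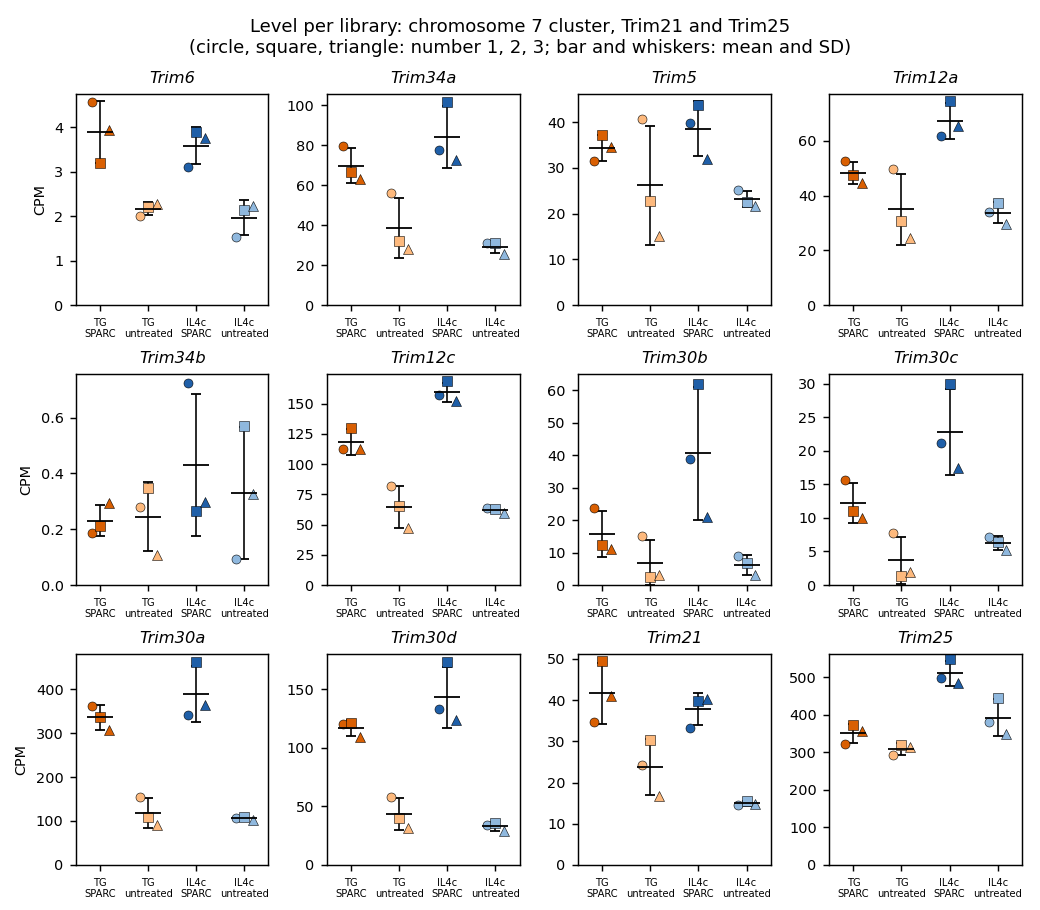
Level in CPM of the 10 chromosome 7 cluster genes, in their order along the chromosome, and of Trim21 and Trim25 in each of 12 libraries; horizontal bars and whiskers are the mean and SD of 3 libraries, and circles, squares and triangles are the libraries numbered 1, 2 and 3. Trim30a lies between 307 and 462 CPM in the libraries with SPARC and between 90.0 and 156 CPM in untreated libraries, while for Trim12a, Trim5 and Trim30b the untreated TG library numbered 1 reaches into the SPARC range.

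**Figure D3:**
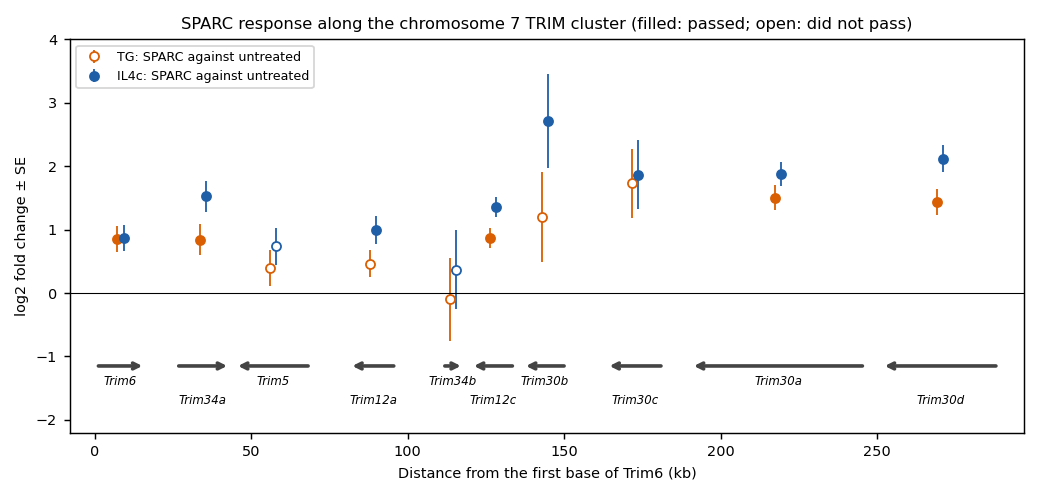
Log2 fold change (± SE) of the 10 cluster genes with SPARC, placed by distance in kb from the first base of Trim6; arrows show gene extent and strand, filled points passed and open points did not. The 4 Trim30 genes at the right reach 1.86 to 2.71 in IL4c, and Trim34b in the middle is near 0 in TG with a wide error.

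Copies in the cluster are alike enough for reads to be assigned uncertainly. Of all 50-base words in the annotated transcripts, 59.7% of those of Trim34a also occur in another gene, 39.8% in Trim34b alone. The share was 36.6% for Trim5, 33.7% for Trim12c, 10.5% for Trim12a, 7.49% for Trim30d, 5.98% for Trim30a and 1.48% for Trim30b. The split of counts between Trim34a and Trim34b and between Trim5, Trim12a and Trim12c is therefore uncertain. In addition, 23.5% of Trim34a exon sequence is overlapped by an antisense gene, Gm47248, and the strandedness of the counting is not given in the sources used here.

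RefSeq promoter windows (GRCm38.p6, 250 bases before and 50 after each start) were available for 52 members, 33 of them tested. The windows below are shown because they hold a short element found in some, not all, of the genes that rose. The motif searched was GAAANNGAAA on both strands, the core of the interferon-stimulated response element that interferon regulatory factors and ISGF3 bind. It was chosen with the results known, and a match is a description of the letters only. The stretches below are on the strand of each gene, with every matched base in capitals.
Trim30a: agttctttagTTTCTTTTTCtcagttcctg
Trim30d: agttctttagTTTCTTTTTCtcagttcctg
Trim12c: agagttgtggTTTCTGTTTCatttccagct
Trim12a: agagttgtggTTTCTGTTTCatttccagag
Trim5: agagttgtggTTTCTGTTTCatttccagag
Trim34a: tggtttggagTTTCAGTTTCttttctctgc
Trim21: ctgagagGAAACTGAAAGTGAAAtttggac
Trim26: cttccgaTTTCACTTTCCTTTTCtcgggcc
The motif was found in 7 of the 13 TRIM genes with a window that were higher with SPARC in either injection (53.8%), in 2 of the other 20 tested members with a window (Trim5 and Trim2) and in 3.99% of all 27025 genes. Within the cluster it was found in 6 of 10 genes. It reads in the reverse direction in all 6, while Trim21 carries 2 overlapping matches in the forward direction and Trim26 carries 2 overlapping matches in reverse. No window of the 13 genes held TTCNNNNGAA, the STAT6 type of site (8.01% of all genes did), and 1 of the 13, Trim26, held the NF-kB type GGGANNNNCC (22.9% of all genes). These differences from all genes were not tested, and 13 genes are too few to show them. The 30 bases shown for Trim30a and Trim30d are identical, as are those of Trim12a and Trim5, so the cluster genes are not independent examples.

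The whole window of the main Trim30a start (chr7:104465144-104465443, GRCm38.p6, minus strand) shows the element 36 to 27 bases before the start, in capitals.
Trim30a promoter: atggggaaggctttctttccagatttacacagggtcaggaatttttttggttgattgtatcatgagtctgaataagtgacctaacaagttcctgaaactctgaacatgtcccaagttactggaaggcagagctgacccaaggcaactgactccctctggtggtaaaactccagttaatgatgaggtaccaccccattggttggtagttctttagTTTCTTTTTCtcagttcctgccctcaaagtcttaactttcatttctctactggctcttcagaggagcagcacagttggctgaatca
The window of Trim12c (chr7:104353300-104353599, minus strand) has it 29 to 20 bases before the start.
Trim12c promoter: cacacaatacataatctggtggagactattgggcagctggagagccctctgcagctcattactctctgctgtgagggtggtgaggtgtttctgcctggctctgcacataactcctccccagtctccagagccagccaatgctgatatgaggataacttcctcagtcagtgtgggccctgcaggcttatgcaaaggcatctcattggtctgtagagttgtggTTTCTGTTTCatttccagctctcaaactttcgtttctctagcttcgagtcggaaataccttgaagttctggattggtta
The window of Trim21 (chr7:102565433-102565732, minus strand), which lies outside the cluster, has its 2 overlapping matches 14 to 29 bases after the start.
Trim21 promoter: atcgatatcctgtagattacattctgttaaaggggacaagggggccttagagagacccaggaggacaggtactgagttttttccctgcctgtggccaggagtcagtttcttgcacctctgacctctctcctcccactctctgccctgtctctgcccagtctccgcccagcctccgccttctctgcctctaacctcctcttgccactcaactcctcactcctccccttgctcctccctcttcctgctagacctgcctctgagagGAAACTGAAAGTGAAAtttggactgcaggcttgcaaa

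Over the whole family, 8 of the 44 tested members (18.2%) passed between TG macrophages with SPARC and untreated ones, 6 higher and 2 lower, against 11.3% of all genes tested. The share higher was 13.6% of members, against 6.73% of all genes, and the share lower was 4.55%, against 4.52%. In IL4c macrophages 18 members (40.9%) passed, 14 higher and 4 lower, against 27.8% of all genes; the share higher was 31.8% of members, against 15.1% of all genes, and the share lower was 9.09%, against 12.7%. Outside the chromosome 7 cluster, 3 of 34 members passed in TG (8.82%) and 10 of 34 in IL4c (29.4%), close to the share of all genes in each comparison. The libraries of both treatments did not overlap for 17 members in TG (38.6%, against 30.5% of all genes) and for 25 in IL4c (56.8%, against 50.4%). The 8 members that passed in TG all passed in IL4c in the same direction. Of these IL4c calls, that of Trim41 was lost under 8 of 22 alternatives and that of Trim6 under 3 of 21.

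The TG count depended on how the libraries were fitted. Libraries of the same number within an injection deviated together from their group means, but so did some of different numbers. With the number as a block, 17 members passed in TG, 12 higher and 5 lower, while the share of all genes rose to 27.3%. The block added Trim12a, Trim30b, Trim30c, Trim29, Trim46 and Trim56 among the higher and Trim16, Trim24 and Trim36 among the lower. By DESeq2, 12 members passed in TG, where 16.1% of all genes did, with Trim30c added as higher and Trim16, Trim36 and Trim44 as lower. With the TG libraries fitted alone, 2 members passed, Trim30a and Trim30d, while the share of all genes fell to 3.55%.

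**Figure D4:**
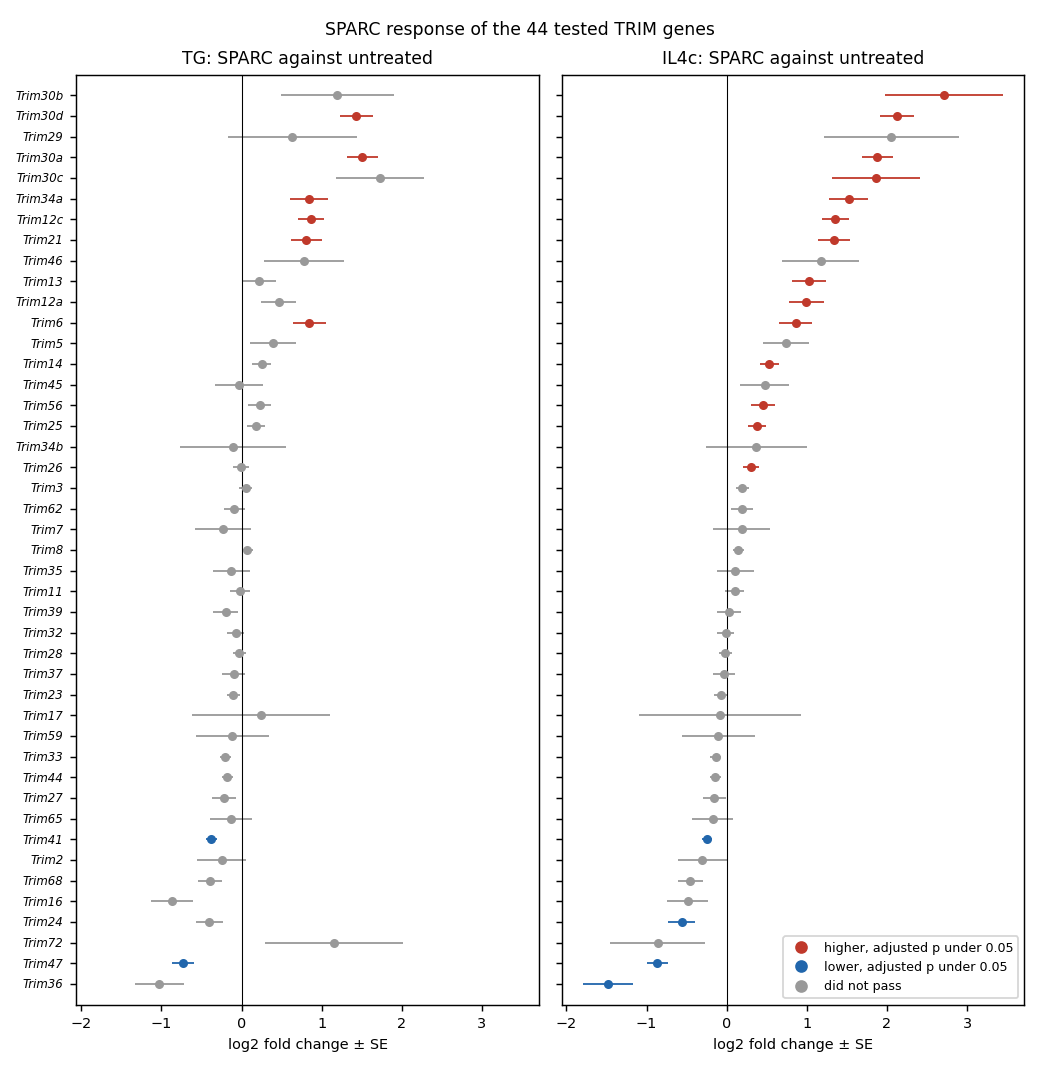
Log2 fold change (± SE) with SPARC against untreated of the 44 tested TRIM genes, in TG (left) and IL4c (right) macrophages, ordered by the IL4c estimate. The 6 genes that passed as higher in TG are among the 14 that did so in IL4c, and Trim41 and Trim47 lie below 0 in both.

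Among the members known for innate sensing and antiviral defence outside the cluster, 5 of the 8 tested rose in IL4c (62.5%, against 15.1% of all genes) and 1 of the 8 in TG (12.5%, against 6.73%). Trim21 (ENSMUSG00000030966.12, chr7:102557921-102565486, minus strand), a cytosolic Fc receptor that sends antibody-coated virus to the proteasome, was at 34.7, 49.5 and 41.0 CPM in TG with SPARC, against 24.2, 30.3 and 16.8 CPM untreated. In IL4c it was at 33.3, 39.8 and 40.3 CPM with SPARC, against 14.5, 15.6 and 14.7 CPM untreated. The groups did not overlap in either injection. Trim21 rose 1.75-fold in TG (log2 0.81 ± 0.20, adjusted p = 0.0276), a call lost under 6 of 22 alternatives, and 2.53-fold in IL4c (log2 1.34 ± 0.20, adjusted p = 0.00117).

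Trim25 was at 323, 373 and 356 CPM in TG with SPARC, against 292, 320 and 315 CPM untreated. In IL4c it was at 498, 549 and 486 CPM with SPARC, against 381, 446 and 348 CPM untreated, so its rise in IL4c was small in proportion (1.30-fold, log2 0.38 ± 0.11, adjusted p = 0.03). It did not pass in TG (log2 0.18 ± 0.11, adjusted p = 0.347). Trim14, an adaptor of the mitochondrial protein MAVS that lacks a RING, was at 34.2, 44.3 and 34.4 CPM in IL4c with SPARC, against 23.5, 28.2 and 26.4 CPM untreated. Trim14 rose 1.44-fold in IL4c (log2 0.53 ± 0.12, adjusted p = 0.00954), and its value is uncertain because exons of the antisense gene Nans cover 31.3% of its exon sequence. Trim56, a ligase linked to cytosolic DNA sensing, rose 1.37-fold in IL4c (log2 0.45 ± 0.15, adjusted p = 0.0443), and Trim26, a ligase that limits interferon induction in the nucleus, rose 1.23-fold (log2 0.30 ± 0.10, adjusted p = 0.0472). The IL4c groups of Trim56 and Trim26 did not overlap, and both calls were lost under 6 of 22 alternatives. In TG neither passed, with log2 0.23 ± 0.15 for Trim56 and −0.01 ± 0.10 for Trim26. Trim65, which modifies the RNA sensor MDA5, did not pass in TG (log2 −0.13 ± 0.26) or IL4c (log2 −0.17 ± 0.26); with the number as a block Trim65 passed as lower in IL4c (log2 −0.17 ± 0.06, adjusted p = 0.0411).

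Trim13, a ligase anchored in the endoplasmic reticulum, was at 8.39, 6.81 and 9.47 CPM in IL4c with SPARC, against 3.73, 3.87 and 4.50 CPM untreated. In TG it was at 6.95, 8.62 and 8.53 CPM with SPARC, against 4.79, 8.13 and 7.72 CPM untreated. Its groups were apart in IL4c and overlapped in TG. Trim13 rose 2.04-fold in IL4c (log2 1.03 ± 0.21, adjusted p = 0.00594) and did not pass in TG (log2 0.22 ± 0.21, adjusted p = 0.553). The gene Gm9359 shares 14.2% of its 50-base words, so its level is uncertain.

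Few members were lower with SPARC. Trim47 (ENSMUSG00000020773.11, chr11:116105752-116127210, minus strand), a RING ligase, was at 11.5, 14.4 and 16.3 CPM in TG with SPARC, against 20.1, 24.9 and 25.2 CPM untreated. In IL4c it was at 11.6, 12.5 and 12.3 CPM with SPARC, against 21.0, 24.1 and 21.2 CPM untreated. Trim41 (ENSMUSG00000040365.14, chr11:48806404-48817353, minus strand), a ligase that modifies protein kinase C, was at 51.6, 53.0 and 55.6 CPM in TG with SPARC, against 74.2, 66.8 and 66.9 CPM untreated. The groups of both genes did not overlap in TG. Trim41 was at 53.5, 52.8 and 50.2 CPM in IL4c with SPARC, against 59.9, 62.4 and 63.3 CPM untreated, again without overlap. Trim47 fell by 0.73 ± 0.13 on the log2 scale in TG (adjusted p = 0.0091) and by 0.86 ± 0.13 in IL4c (adjusted p = 0.00142). Trim41 fell by 0.38 ± 0.06 in TG (adjusted p = 0.00669) and by 0.25 ± 0.06 in IL4c (adjusted p = 0.0176). The exons of Trim47 overlap those of Trim65 on the same strand over 8.23% of their length.

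Trim36, a microtubule-associated ligase, was at 2.58, 1.75 and 4.35 CPM in IL4c with SPARC, against 6.75, 7.44 and 10.1 CPM untreated. In TG it was at 8.29, 10.7 and 12.6 CPM with SPARC, against 16.9, 23.6 and 24.0 CPM untreated. No library with SPARC reached an untreated one in either injection. Trim36 fell by 1.48 ± 0.32 on the log2 scale in IL4c (adjusted p = 0.00728), and the TG difference of −1.03 ± 0.31 did not pass (adjusted p = 0.0587), but did with the number as a block (−1.03 ± 0.15, adjusted p = 0.00293). Several fits without a block also called Trim36 in TG, among them DESeq2 (adjusted p = 0.012) and limma on log2(FPKM + 1) (adjusted p = 0.0117).

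Of the 4 tested nuclear regulators of transcription, none passed in TG and 1, Trim24, passed in IL4c (25%, against 27.8% of all genes). Trim24, a coregulator of nuclear receptors, was at 18.6, 18.3 and 15.0 CPM in IL4c with SPARC, against 28.1, 27.5 and 21.2 CPM untreated, and fell by 0.56 ± 0.17 on the log2 scale (adjusted p = 0.0292). That call was lost under 5 of 22 alternatives. In TG, Trim24 did not pass (−0.40 ± 0.17, adjusted p = 0.153), but did with the number as a block (−0.39 ± 0.07, adjusted p = 0.00717). Trim28 was at 96.0, 79.6 and 81.4 CPM in TG with SPARC, against 90.2, 83.8 and 88.2 CPM untreated, with differences of −0.03 ± 0.08 in TG and −0.02 ± 0.08 in IL4c that did not pass. Trim33, a regulator of SMAD signalling that in mouse macrophages shuts off Ifnb1, had differences of −0.21 ± 0.07 (adjusted p = 0.0862) in TG and −0.14 ± 0.07 (adjusted p = 0.168) in IL4c, and Trim27 had −0.22 ± 0.15 and −0.15 ± 0.15. None of the 3 tested NHL-repeat members, Trim2, Trim3 and Trim32, passed with SPARC in either injection with all libraries; leaving out the TG pair numbered 1, Trim3 passed as higher in IL4c (0.19 ± 0.07, adjusted p = 0.0419).

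Trim29, which lacks a RING and in mouse alveolar macrophages limits the response to infection, was uneven between libraries of the same group. It was at 7.62, 10.5 and 17.1 CPM in IL4c with SPARC, against 1.78, 2.15 and 4.53 CPM untreated. In TG it was at 3.41, 19.2 and 17.0 CPM with SPARC, against 1.27, 13.7 and 10.6 CPM untreated, where the libraries numbered 1 were far below the others. Within each number Trim29 was higher with SPARC in all 3 TG pairs and all 3 IL4c pairs. It did not pass in IL4c (log2 2.05 ± 0.84, adjusted p = 0.0978) or TG (log2 0.64 ± 0.81, adjusted p = 0.677); with the number as a block it passed in both, at 2.09 ± 0.18 (adjusted p = 0.000179) and 0.79 ± 0.17 (adjusted p = 0.0132). Without both TG libraries numbered 1, Trim29 passed in IL4c as well (2.04 ± 0.40, adjusted p = 0.00382), as it did by DESeq2 (adjusted p = 0.0307) and with only the IL4c groups fitted (adjusted p = 0.0159), and it did not pass in TG (adjusted p = 0.433). Trim46, which bundles microtubules in the axon, did not pass in IL4c (log2 1.17 ± 0.48, adjusted p = 0.0958) or TG (log2 0.78 ± 0.50, adjusted p = 0.366). It passed with the block at 1.19 ± 0.16 in IL4c (adjusted p = 0.00113) and 0.73 ± 0.20 in TG (adjusted p = 0.034). In IL4c Trim46 also passed in several fits without a block, among them DESeq2 (adjusted p = 0.0499) and the fit that leaves out the TG pair numbered 1 (adjusted p = 0.0128). In TG the libraries low in Trim29 are those with the highest B cell marker sums. They also had the lowest sums of 6 fibroblast and mesothelial markers, 24.8 CPM with SPARC and 5.78 CPM untreated, where the other TG libraries had 110 to 192 CPM. In IL4c that sum was 60.4 to 112 CPM with SPARC and 6.66 to 17.6 CPM untreated, most of it Dcn. The part of these cells in the level of Trim29 was not tested.

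Several of these calls did not hold with 1 library left out. All of those but the TG call of Trim47 were lost by leaving out any of several libraries. There were 10 such libraries for Trim34a in TG and 7 for Trim25 in IL4c, some of them from the other injection. In TG, the adjusted p reached 0.129 for Trim34a, 0.0714 for Trim6 and 0.092 for Trim21 with 1 library left out, and 0.0547 for Trim47 without the untreated TG library numbered 2. In IL4c, it reached 0.0722 for Trim30b, 0.0909 for Trim30c, 0.103 for Trim25, 0.131 for Trim56, 0.15 for Trim26, 0.103 for Trim24 and 0.081 for Trim41. The calls of Trim30a, Trim30d, Trim12c and Trim41 in TG, and of Trim30a, Trim30d, Trim12a, Trim12c, Trim34a, Trim6, Trim21, Trim13, Trim14, Trim36 and Trim47 in IL4c, held with any 1 library left out.

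The responses of the 2 kinds of macrophage were compared directly, as the difference of the log2 fold changes, IL4c minus TG. No member passed, against 0% of all genes by edgeR, and DESeq2 called 0 members, against 2.13% of all genes. At an unadjusted p under 0.05 by the edgeR test there were 2 members, Trim13 (difference 0.80 ± 0.30, adjusted p = 0.364) and Trim30d (0.69 ± 0.29, adjusted p = 0.434), against 10.6% of all genes. The difference was positive for 36 of the 44 members and for all 10 cluster genes, and the share of all genes was not computed. Its median was 0.17 for the members and 0.48 for the cluster, against 0.017 over all genes. A positive difference includes a weaker fall in IL4c, as for Trim41. The members were read from the same libraries, so they are not replicates. The difference for Trim30a was 0.37 ± 0.26 and for Trim12c 0.49 ± 0.23. Without both TG libraries numbered 1, the difference for Trim13 was 0.89 ± 0.21 and passed (adjusted p = 0.0479), and with the number as a block that of Trim29 passed (1.30 ± 0.24, adjusted p = 0.0423). The larger number of members that passed in IL4c is thus not by itself a difference between the injections.

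Between the injections, 10 of 44 members (22.7%) passed in untreated macrophages, 3 higher and 7 lower in IL4c than in TG, against 21.0% of all genes (10.2% higher and 10.8% lower). With SPARC in both, 6 members (13.6%) passed, 3 higher and 3 lower, against 21.0% of all genes (10.9% higher and 10.1% lower). The libraries of the injections did not overlap for 19 members untreated (43.2%, against 39.0% of all genes) and for 16 with SPARC (36.4%, against 41.4%). No gene of the chromosome 7 cluster passed in either comparison by edgeR with all libraries. Without both TG libraries numbered 1, Trim30c passed as higher in untreated IL4c (log2 1.93 ± 0.28, adjusted p = 0.00111). With SPARC in both, that fit called Trim30c (1.10 ± 0.24, adjusted p = 0.00857), Trim30b (1.78 ± 0.52, adjusted p = 0.0271), Trim12a (0.54 ± 0.13, adjusted p = 0.0121) and Trim12c (0.38 ± 0.13, adjusted p = 0.0488) as higher in IL4c. Trim12a and Trim12c also passed with only the groups compared, and Trim12c by DESeq2. The medians of the 10 cluster genes were −0.15 untreated and 0.36 with SPARC on the log2 scale, against −0.05 and −0.03 for all genes. The family as a whole was thus called at about the background rate or below it.

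Trim3, an NHL-repeat ligase, was at 18.6, 20.2 and 21.0 CPM in untreated IL4c libraries, against 29.5, 34.3 and 34.6 CPM in untreated TG libraries. With SPARC it was at 23.3, 21.8 and 23.2 CPM in IL4c, against 33.1, 33.0 and 36.1 CPM in TG. The groups were clearly apart with and without SPARC. Trim3 fell by 0.72 ± 0.08 on the log2 scale in untreated IL4c against TG cells (adjusted p = 0.00086) and by 0.58 ± 0.08 with SPARC (adjusted p = 0.0015), and both calls held under all 22 alternatives. Trim36, whose levels are given above, fell by 1.41 ± 0.31 untreated (adjusted p = 0.0128) and by 1.86 ± 0.32 with SPARC (adjusted p = 0.00375). Every IL4c library was below every TG library of the same treatment. Trim33 was at 46.6, 50.5 and 43.0 CPM in untreated IL4c libraries, against 58.1, 58.2 and 59.1 CPM in untreated TG libraries. With SPARC, Trim33 was at 42.0, 41.8 and 43.6 CPM in IL4c, against 48.0, 51.6 and 52.7 CPM in TG. Trim33 fell by 0.32 ± 0.07 untreated (adjusted p = 0.0109) and by 0.26 ± 0.07 with SPARC (adjusted p = 0.026), a call lost under 9 of 22 alternatives with SPARC.

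Trim8 was higher in IL4c, at 120, 124 and 120 CPM untreated, against 96.9, 89.3 and 93.4 CPM in untreated TG libraries. With SPARC it was at 143, 132 and 127 CPM in IL4c, against 102, 95.9 and 96.3 CPM in TG. The groups did not overlap in either treatment. Trim8 rose by 0.38 ± 0.07 on the log2 scale untreated (adjusted p = 0.0054) and by 0.45 ± 0.07 with SPARC (adjusted p = 0.00183). Trim46 was at 2.14, 1.24 and 2.53 CPM in untreated IL4c libraries, against 0.872, 0.443 and 0.394 CPM in untreated TG libraries. With SPARC, Trim46 was at 4.98, 3.11 and 5.25 CPM in IL4c, against 1.74, 0.661 and 0.559 CPM in TG. In both treatments Trim46 was higher in each IL4c library than in any TG library. It rose 3.44-fold untreated (log2 1.78 ± 0.50, adjusted p = 0.0322) and 4.51-fold with SPARC (log2 2.17 ± 0.50, adjusted p = 0.0133); the antisense gene Krtcap2 covers 6.30% of its exon sequence. Trim25 rose with SPARC present (1.46-fold, log2 0.54 ± 0.11, adjusted p = 0.00897) and did not pass untreated (log2 0.34 ± 0.11, adjusted p = 0.0554). Several alternatives called Trim25 as higher untreated, among them DESeq2 (adjusted p = 0.0142) and edgeR with a filter of 5 CPM in 3 libraries (adjusted p = 0.038).

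Trim72, a membrane-repair protein of muscle, was near the limit of detection. It had 20, 18 and 8 counts in untreated IL4c libraries, against 2, 2 and 0 counts in untreated TG libraries. The fitted difference of 3.67 ± 0.75 on the log2 scale (adjusted p = 0.00905) depends on the prior added to such low counts, and 27.6% of its exon sequence is overlapped by the antisense gene Gm15533. Its mean in untreated IL4c libraries was still below 1 FPKM.

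Trim45 was at 0.844, 0.817 and 1.28 CPM in untreated IL4c libraries, against 1.91, 3.23 and 2.52 CPM in untreated TG libraries, and fell by 1.38 ± 0.31 on the log2 scale (adjusted p = 0.0138). Trim13 fell by 0.77 ± 0.21 (adjusted p = 0.0289), Trim21 by 0.67 ± 0.20 (adjusted p = 0.0374) and Trim39, a ligase involved in cell death and the cell cycle, by 0.54 ± 0.15 (adjusted p = 0.031) in untreated IL4c against TG cells. With SPARC in both, these 4 did not pass, with log2 differences of −0.87 ± 0.31 for Trim45, 0.03 ± 0.21 for Trim13, −0.14 ± 0.19 for Trim21 and −0.31 ± 0.15 for Trim39. With 1 library left out, the untreated adjusted p reached 0.148 for Trim13, 0.181 for Trim21, 0.0888 for Trim39, 0.0705 for Trim45, 0.102 for Trim46, 0.0791 for Trim33 and 0.0576 for Trim36, while the calls of Trim3, Trim8 and Trim72 held. With SPARC in both, it reached 0.15 for Trim33, and the calls of Trim3, Trim8, Trim25, Trim36 and Trim46 held. Without both TG libraries numbered 1, 18 members passed untreated and 14 with SPARC, where 38.8% and 36.1% of all genes did. Trim29 was among those added untreated (−2.08 ± 0.42, adjusted p = 0.00582), as was Trim59 (0.92 ± 0.21, adjusted p = 0.00852), whose level in the TG libraries numbered 1 was 10.1 CPM with SPARC and 11.7 CPM untreated, while the other TG libraries had 3.67 to 4.83 CPM. That fit also added Trim2 and Trim24 as higher and Trim16 and Trim32 as lower in untreated IL4c. With SPARC in both, it added Trim59 as higher and Trim32, Trim45 and Trim47 as lower, besides the cluster genes named above.

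**Figure D5:**
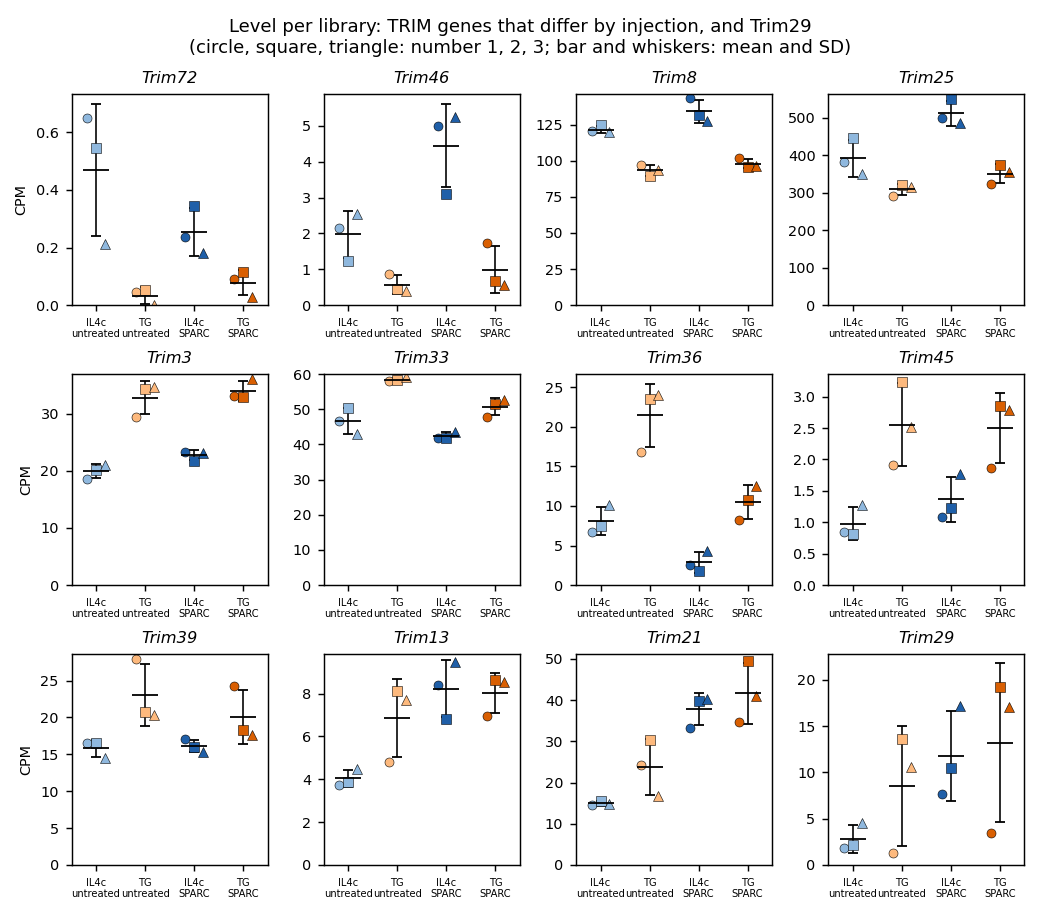
Level in CPM of the 11 TRIM genes that passed in a comparison of injections, and of Trim29, in each of 12 libraries, with IL4c groups left of the TG group of the same treatment; bars and whiskers are the mean and SD of 3 libraries. Trim3 lies between 18.6 and 23.3 CPM in IL4c and between 29.5 and 36.1 CPM in TG, and the Trim29 points of the TG libraries numbered 1 (circles) lie at 1.27 and 3.41 CPM, below the other TG points.

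Taking both kinds of comparison, 18 members passed with SPARC in at least 1 injection, 11 passed between injections with or without SPARC, and 25 passed in at least 1 of these 4 comparisons. The matching shares of all genes over several comparisons were not computed, so these counts cannot be called an excess. The 11.3% to 27.8% of all genes that passed in each comparison taken singly are not a like measure. The other 19 tested members passed in none of the 4. These include abundant genes such as Trim28, Trim35, Trim44 and Trim11, all above 10 FPKM on average. By alternative tests, Trim28 passed as lower in untreated IL4c against TG, with limma on log2(FPKM + 1) (adjusted p = 0.0413) and log2(FPKM + 0.1) (adjusted p = 0.041). Trim44 passed as lower in TG with SPARC by DESeq2 (adjusted p = 0.0257).

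Of 17 signalling partners of TRIM proteins in RNA and DNA sensing, 6 rose in TG (35.3%, against 6.73% of all genes) and 10 in IL4c (58.8%, against 15.1%), and none fell. Ifih1, which encodes the RNA sensor MDA5, rose by 1.60 ± 0.14 on the log2 scale in TG (adjusted p = 0.000305) and by 1.85 ± 0.14 in IL4c (adjusted p = 4.5e-05). Ddx58, which encodes RIG-I, the substrate of Trim25, rose by 1.75 ± 0.29 in TG and by 2.55 ± 0.29 in IL4c. The kinase gene Tbk1 rose by 0.46 ± 0.08 in TG and by 0.79 ± 0.08 in IL4c. Of 17 ubiquitin and ISG15 enzymes, 5 rose and 1 fell in each injection. The 6 that passed are 35.3% of the list, against 11.3% of all genes in TG and 27.8% in IL4c, where the shares are close. Ube2l6, the conjugating enzyme for ISG15, rose by 2.15 ± 0.16 in TG and by 3.49 ± 0.17 in IL4c, Uba7, its activating enzyme, by 1.16 ± 0.20 and by 2.28 ± 0.21, while Ube2d1, a general ubiquitin-conjugating enzyme, fell by 0.33 ± 0.09 and by 0.36 ± 0.09.

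Some genes of the family carry other names, and 5 of 7 such genes were tested. Mefv, which encodes the inflammasome sensor pyrin, was at 59.5, 82.9 and 83.3 CPM in TG with SPARC, against 39.3, 18.2 and 21.5 CPM untreated. In IL4c, Mefv was at 59.4, 90.4 and 44.6 CPM with SPARC, against 10.4, 9.23 and 6.26 CPM untreated. Its groups did not overlap in either injection. Mefv rose by 1.52 ± 0.34 on the log2 scale in TG (adjusted p = 0.0217) and by 2.91 ± 0.36 in IL4c (adjusted p = 0.0005), and fell by 1.61 ± 0.35 in untreated IL4c against untreated TG cells (adjusted p = 0.0122). Pml, the organiser of nuclear bodies, rose by 0.95 ± 0.29 in IL4c (adjusted p = 0.0374) and did not pass in TG (0.82 ± 0.29, adjusted p = 0.102). Mid2, a microtubule-associated ligase, differed by injection: it was at 14.1, 17.2 and 8.33 CPM in untreated IL4c libraries, against 2.55, 1.30 and 0.998 CPM in untreated TG libraries, a rise of 3.02 ± 0.43 (adjusted p = 0.00242).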

How the data were processed

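Libraries of polyA RNA from 12 cultures were compared in 4 groups of 3, taken from the labels. The authors deposited a table of expected counts per gene, of which 7.97% are not whole, and a table of FPKM, values per length of gene and per depth. CASAVA, bcl2fastq 1.8.4, STAR and RSEM are named in the submitters' processing notes. No build, annotation or strandedness is given in the sources used here. Positions and exon overlaps come from the GENCODE annotation of GRCm38, and promoters from RefSeq.

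Counts were rounded, scaled by TMM and fitted with edgeR 4.0.16 in R 4.3.3 (quasi-likelihood, robust) on the 15232 genes that filterByExpr kept at a minimum count of 10. All 12 libraries in 4 groups shared 1 estimate of the spread. A gene passed at an adjusted p under 0.05, over all genes; the SE is the size of the log2 fold change over the root of F. The code was tested on simulated data. CPM use totals of 31501941 to 42288785 counts, each multiplied by its TMM factor (0.959 to 1.10). Libraries of 1 group differed by a chi-square of at least 9.80 per degree of freedom, so none was a copy.

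Alternatives were RLE scaling, DESeq2 1.42.0, no filter and a filter of 5 CPM in 3 libraries. Further ones used limma 3.58.1 on log2(FPKM + 1) and log2(FPKM + 0.1), for genes reaching 1 FPKM in 3 or more libraries. An unfiltered limma fit was run on log2(FPKM + 1) only. The rest were only the groups compared, the number as a block, each library left out and both TG libraries numbered 1 left out. Deviations from group means correlated at 0.34 to 0.74 in all 6 same-number pairs of an injection, so numbers were read as pairing libraries within it, a reading from the data, since a number is all that the labels share. The 12 different-number pairs of an injection ranged over −0.66 to 0.51, which overlaps, so this pairing is uncertain. Same-number pairs across injections ranged over −0.18 to 0.25, so numbers do not pair there.

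Named genes were the chromosome 7 cluster, the sensing and nuclear lists, and up to 8 members with the smallest p in each SPARC comparison and 6 in each comparison of injections; Trim29, Trim59 and the members gained by an alternative were named after their values were seen. The members, lists, motifs and alternatives were chosen with earlier results of these data known.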

Additional observations from a re-analysis of the deposited data

How the results depend on the processing

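No member changed direction while called, under any of the 22 alternatives. In TG with SPARC, 8 members passed, where 11.3% of all genes did. The number was 17 in the replicate block fit (27.3% of all genes) and 2 with only the groups compared (3.55%). It was 5 with log2(FPKM + 1) and no filter (3.83%), and 5 to 12 with a library left out (4.68% to 13.4%). In IL4c with SPARC, 18 passed (27.8% of all genes) and 12 to 21 with a library left out (15.9% to 33.2%). No alternative moved this count past 1.5 times. Between untreated injections, 10 passed (21.0% of all genes), against 3 with only the groups compared (11.4%). Without both TG libraries numbered 1, 18 passed (38.8%). With a library left out, 4 to 12 passed (8.75% to 29.3%). There were 4 without the untreated TG library numbered 2 or the untreated IL4c library numbered 1, and 5 without the untreated IL4c library numbered 2. With SPARC in both, 6 passed (21.0% of all genes), and 5 to 9 with a library left out (11.3% to 27.5%). Without both TG libraries numbered 1, the number there was 14 (36.1%). For the difference of responses, 0 passed (0% of all genes), and 0 in each fit with a library left out (0% to 1.78%). With the replicate block 1 passed (Trim29, where 3.1% of all genes did), and 1 without both TG libraries numbered 1 (Trim13, 5.41%). The TG count was 5 without the untreated library numbered 2 or 3 or the SPARC library numbered 3. Beyond the calls given beside each result, the replicate block added Trim16 and Trim68 as lower in IL4c with SPARC (Trim68 also passed by DESeq2, adjusted p = 0.0231, and at 0.0237 when the TG pair numbered 1 is left out), Trim2, Trim25 and Trim7 between untreated injections, and Trim2, Trim45 and Trim72 with SPARC in both, where numbers do not pair the libraries. DESeq2 also called Trim2, Trim25 and Trim7 between untreated injections, and Trim45 with SPARC in both. The causes were not tested. With 3 libraries per group, small differences of low-count members such as Trim34b, Trim72 and Trim17 could not be resolved.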
